A study of Mus musculus with 6 samples.

Results

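Chromatin remodelling enzymes and the enzymes that add or remove methyl groups on histones were compared between aortic smooth muscle with and without miR-21. The genes were taken by symbol: the Smarca to Smarce subunits, Arid1 to Arid5, Chd1 to Chd9, Kmt2 and Kmt5, and Kdm1 to Kdm8. The count table held 60 such rows among 22956, of which 57 were protein-coding genes, and the other 3 were the pseudogenes Smarca5-ps and Smarce1-ps1 and the antisense gene Kdm6bos. Of the 60 rows, 59 passed the filter on low counts, as did 16654 genes in all, and the row that did not pass was Chd5. Messenger RNA had been sequenced from 3 knockout samples (miR-21 fl/fl with mTmG and Myh11ERT2) and 3 WT samples (mTmG and Myh11ERT2). The labels give aortic smooth muscle of the C57B6 strain for all of them, at an age of 30 weeks and with western diet, a fatty feed that promotes atherosclerosis, for 20 weeks. Both groups thus carried the inducible Cre driven by the smooth muscle promoter of Myh11 and the mTmG reporter, which changes colour where Cre has acted. The deletion is thus tied to cells that use that promoter, no label states what share of the cells lost the gene, and the level of miR-21 itself was not analysed here. The labels do not say that replicates are different animals either, and p-values measure just the spread between these samples, which may be technical.

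DNA in the nucleus is wound around histones, and remodelling enzymes use ATP to slide, eject or exchange these spools. SWI/SNF complexes open promoters and enhancers, in smooth muscle partly through coactivators such as myocardin, while ISWI enzymes space the spools evenly and CHD enzymes act in both opening and repression. KMT2 enzymes write the activating methyl mark of promoters and enhancers on histone H3, KMT5 enzymes methylate histone H4, and KDM enzymes erase such marks. MicroRNAs such as miR-21 pair through their seed with sites in the 3′ untranslated region (UTR) of messages and lower them.

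The total estimated count lay between 37787465 and 72277179 in the knockout libraries and between 37996254 and 154384307 in the WT libraries. The labelled cell type was borne out by its markers, since the 8 smooth muscle genes summed to 28866 to 37709 CPM (counts scaled to the size of the library) in knockout and 24025 to 35940 CPM in WT. All 8 T and B cell markers lay under 1 CPM in every library. Adventitial fibroblast markers (8 genes, none at 0) differed between libraries within each group. Lum, Dcn and Gsn were the most abundant. Gsn varied less, at 1230, 1241 and 1063 CPM in knockout 1 to 3 and 1130, 1216 and 1660 CPM in WT 1 to 3. The sums of the 8 genes were 6388, 2478 and 2807 CPM in knockout 1 to 3 and 7361, 4047 and 7322 CPM in WT 1 to 3. By this sum, which Lum, Dcn and Gsn dominate, knockout 1 lay among the WT libraries, as it did by Lum, Dcn, Pdgfra and Dpt. The low markers Pi16 and Dpep1 differed, with all knockout libraries above WT 2 and WT 3. Pi16 had 4.61, 3.71 and 4.19 CPM in knockout 1 to 3 and 5.27, 1.06 and 1.32 CPM in WT 1 to 3. Dpep1 had 1.82, 2.11 and 0.946 CPM in knockout and 1.40, 0.319 and 0.357 CPM in WT. In bulk samples like these, fewer cells of a type and less RNA per cell cannot be told apart.

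Most of the chromatin genes lay slightly higher in the knockout, and those with the smallest unadjusted p on the higher side included SWI/SNF ARID subunits, KMT2 methyltransferases, Chd6 and Arid5a. None passed the test over all genes: edgeR's quasi-likelihood test called 0 of the 59 rows and 0% of the 16654 genes at an adjusted p under 0.05, and the lowest adjusted p was 0.387 among these rows and 0.217 among all genes. DESeq2's Wald test on the same counts called 75 genes, 63 of them higher in the knockout (0.41% of the 15355 genes with an adjusted p), and 1 of these was Arid1a. At an unadjusted edgeR p under 0.05, 10 rows (16.9%) were higher in the knockout against 3.95% of all genes (658), and 3 rows (5.08%) were lower against 2.01% of all genes (335). Fold changes were above 0 in 47 of 59 rows (79.7%) and in 49.4% of all genes. The median log2 fold change, knockout over WT, was 0.08 over the 59 rows and -0.0022 over all genes. In 12 rows (20.3%) every knockout library lay above every WT library, against 6.48% of all genes, and in 4 rows (6.78%) every knockout library lay below, against 5.6% of all genes. Many of these rows are long genes, a property described further on. The counts over all genes moved with single libraries: 414 genes were higher without knockout 2, and the number lower was 956 without knockout 1, 581 without WT 2 and 178 without knockout 2.

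**Figure D1:**
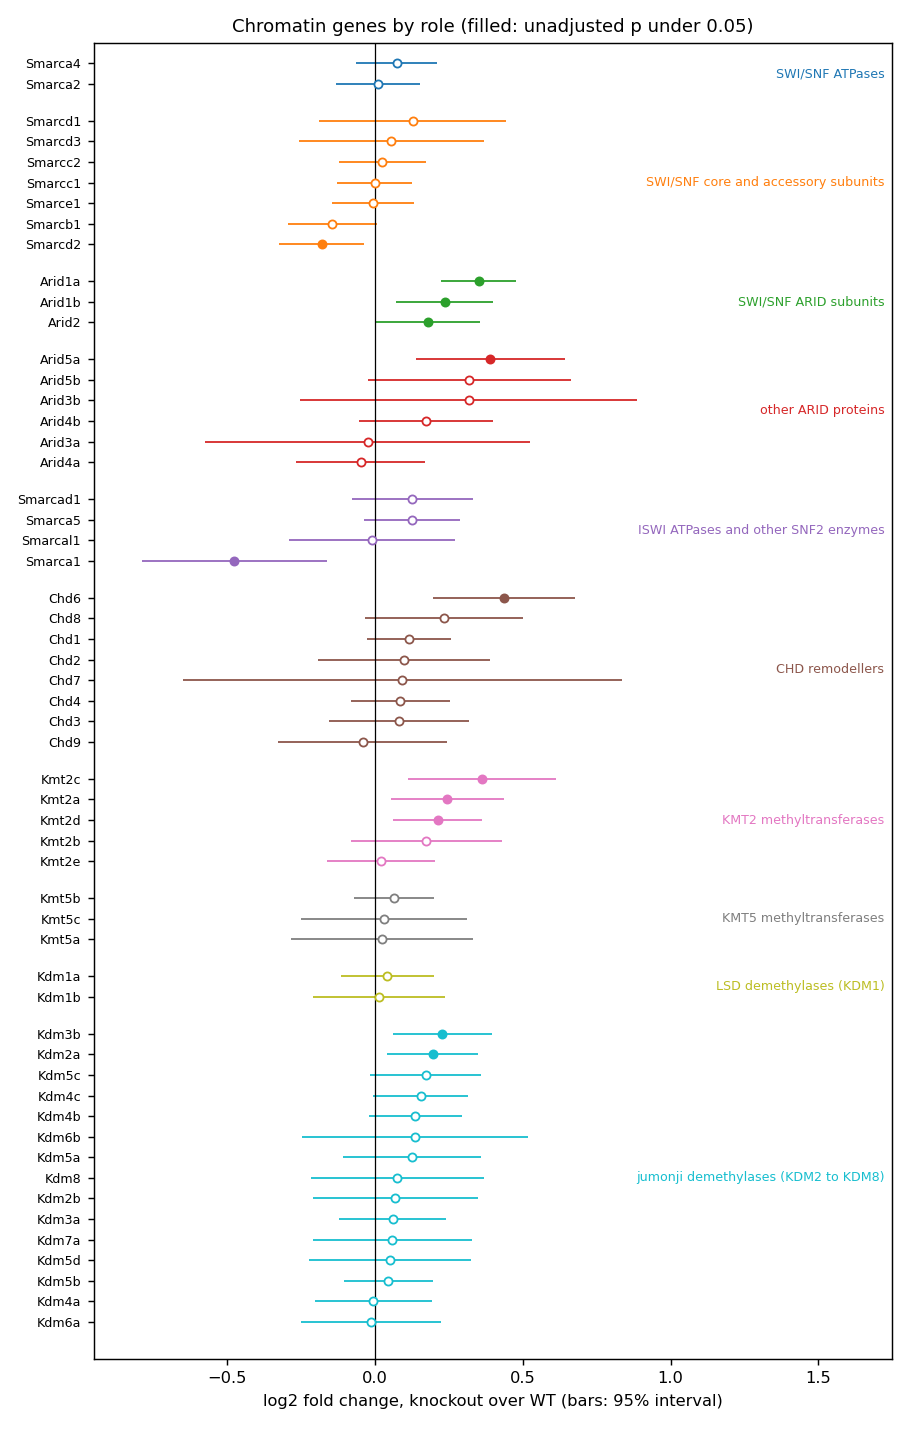
Log2 fold change (knockout over WT) of 55 protein-coding chromatin genes in 10 role groups, ordered by value within a group. Points are the fitted values, bars their 95% intervals and filled points an unadjusted edgeR p under 0.05; Kdm4d, whose interval runs from -2.14 to 2.16, and the 3 noncoding rows are left out. All 3 SWI/SNF ARID subunits and all 5 KMT2 genes lie right of 0, and Smarca1 lies farthest left at -0.47.

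Direct pairing with miR-21 was looked at through its seed. The mature microRNA is shown with the only stretches of the searched 3′ UTRs of these genes that match its whole seed. They are possible sites of direct pairing. Matches to fewer seed bases and matches outside the 3′ UTR were not searched. The microRNA is from RefSeq (GRCm38.p6, chr11:86584120-86584141, minus strand), with bases 2 to 8, the seed, in capitals. The sites are from GENCODE M21 transcripts (GRCm38, the assembly of mm10), with ATAAGCT, the match to that seed, in capitals.
mmu-miR-21a-5p: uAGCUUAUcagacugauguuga
Arid4a site: tgttgcagaaaATAAGCTtattaataatt
Chd7 site: tacctagttttATAAGCTgttctgtaaca
Kdm5b site: tagtagctgacATAAGCTagtcagcatat
Kdm7a site: catgtgtttttATAAGCTattagcttcgc
The matches lie at chr12:71097768-71097774 (plus strand) in Arid4a, chr4:8866748-8866754 (plus) in Chd7, chr1:134634894-134634900 (plus) in Kdm5b and chr6:39142571-39142577 (minus) in Kdm7a. Those of Kdm5b and Kdm7a are followed by A, which makes the longer match ATAAGCTA.

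Seed matches were found in 4 of the 56 tested chromatin genes (7.14%), against 965 of 13182 tested genes with a searched UTR (7.32%). One principal transcript was searched per gene, on the strand of the message. The 4 genes with a match had log2 fold changes near 0: -0.05 ± 0.09 (SE) for Arid4a, a retinoblastoma-binding repressor subunit, 0.09 ± 0.31 for Chd7, 0.05 ± 0.06 for Kdm5b and 0.06 ± 0.11 for Kdm7a, both demethylases. The sign turned with 1 library left out in each of the 4, and in Kdm5b and Kdm7a also after the trend with length and level was taken out (-0.07 and -0.01). None of the 10 genes higher at an unadjusted p under 0.05 held the match. Their searched UTRs ran from 57 bases in Kmt2c, which leaves little room for a match, to 4681 bases in Kdm2a.

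All 3 ARID subunits of SWI/SNF, the DNA-binding members that define its subtypes, lay higher in the knockout. All are long, with a median of 11476 bases of exon, and 73.1% of all genes of at least 10000 bases lay above 0. Their median log2 fold change was 0.24, or 0.14 with the trend in length and level taken out. Arid1a (chromosome 4, 133679008 to 133756770, minus strand, mm10), a subunit of the BAF form, had 47.01, 47.6 and 49.5 CPM in knockout 1 to 3 and 37.9, 37.8 and 37.3 CPM in WT 1 to 3. The groups did not overlap, and the libraries of each differed by far less than the groups did. Its mean was 48.1 ± 1.32 CPM in knockout and 37.7 ± 0.306 CPM in WT (SD, n = 3 each). The log2 fold change came to 0.35 ± 0.05 (SE; edgeR adjusted p = 0.387). DESeq2 gave it an adjusted p of 0.000574, the lowest of the settings tried, which reached 0.99988. Arid1b (chromosome 17, 4994332 to 5347657, plus strand), which replaces Arid1a in other BAF complexes, had 96.3, 95.8 and 90.6 CPM in knockout and 85.1, 80.8 and 74.2 CPM in WT, a log2 fold change of 0.24 ± 0.07 (edgeR adjusted p = 0.780). Arid2, the ARID subunit of the PBAF form, had 52.8, 51.8 and 52.0 CPM in knockout and 41.9, 50.0 and 46.3 CPM in WT, with a log2 fold change of 0.18 ± 0.07. In both genes every knockout library lay above every WT library, though knockout 2 and WT 2 of Arid2 differed by little.

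The motors and the core of SWI/SNF lay close to equal in the groups. Smarca4 (Brg1) and Smarca2 (Brm), the alternative ATPases, had log2 fold changes of 0.07 ± 0.06 and 0.01 ± 0.06 (SE), that of Smarca2 turning to -0.0022 with upper-quartile scaling. Smarcc1 and Smarcc2, the paired scaffold subunits, were at -0.0004 ± 0.05 and 0.03 ± 0.06, and Smarce1 at -0.01 ± 0.06. The sign of Smarcc1 turned under 6 other settings, 2 of them with a library left out, and that of Smarcc2 without WT 2 (-0.0009) and with the trend in length and level taken out (-0.0019). Of the 7 core and accessory subunits, whose median exonic length is 5552 bases, 3 lay above 0, with a median of -0.0004. At an unadjusted p under 0.05, 0 were higher and 1 lower, against 3.95% and 2.01% of all genes.

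That 1 subunit was Smarcd2 (chromosome 11, 106263179 to 106272973, minus strand), a BAF60 adaptor that links the complex to transcription factors. Smarcd2 had 41.6, 38.9 and 42.8 CPM in knockout and 45.5, 46.6 and 47.5 CPM in WT, a log2 fold change of -0.18 ± 0.06 (edgeR adjusted p = 0.793). Smarcb1 (Snf5), a core subunit that anchors the complex to the histone octamer, had 57.0, 52.5 and 58.9 CPM in knockout and 63.7, 60.7 and 61.6 CPM in WT, a log2 fold change of -0.14 ± 0.06 (edgeR adjusted p = 0.835). In both, every knockout library lay below every WT library, with gaps smaller than the spread of the knockout libraries. The related adaptors did not share this pattern: Smarcd1 was at 0.13 ± 0.13 and Smarcd3, the form linked to muscle genes, at 0.06 ± 0.13, with overlapping groups.

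Levels of the SWI/SNF subunits were also taken per kilobase of exon. Exonic length here joins the exons of all annotated transcripts of a gene, so it can exceed the length of a single message. Values per kilobase therefore compare genes only roughly. Smarcd3 was the highest of the 59 rows at 38.2 CPM per kb in knockout and 36.7 in WT, though 48.2% of its exonic bases are shared with Chpf2 on the opposite strand and strand use in counting is not stated. Smarcc2 followed at 28.5 CPM per kb in knockout and 28.0 in WT. Smarca4 stood at 11.8 in knockout and 11.2 in WT, and Smarca2 at 11.7 in knockout and 11.6 in WT. Their nearness depends on the joined lengths, 6475 bases for Smarca4 and 14269 for Smarca2. Before division by length, Smarca2 had a mean of 166 CPM in knockout and 165 in WT, and Smarca4 76.2 and 72.3. Arid1b stood at 7.48 in knockout and 6.35 in WT, above Arid1a at 4.19 in knockout and 3.28 in WT.

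The other ARID proteins varied among themselves. Arid5a (chromosome 1, 36307733 to 36324030, plus strand), which in mice also binds and stabilises messages of inflammation such as Il6, had 98.4, 125 and 108 CPM in knockout and 91.9, 77.5 and 83.2 CPM in WT. Every knockout library lay above every WT library, knockout 2 the highest, and the log2 fold change was 0.39 ± 0.11 (SE, edgeR adjusted p = 0.780). Arid5b, a partner of the demethylase Phf2, had 109, 123 and 119 CPM in knockout and 113.8, 92.1 and 75.8 CPM in WT, so that WT 1 lay among the knockout libraries (0.32 ± 0.14). The DNA-binding Bright-family genes Arid3a and Arid3b were at -0.02 ± 0.23 and 0.32 ± 0.24, and Arid4b, an Arid4a relative in the Sin3 deacetylase complex, at 0.17 ± 0.10. Of these 6 genes, 4 lay above 0, against 49.4% of all genes. At an unadjusted p under 0.05, 1 was higher, against 3.95% of all genes. Their median log2 fold change was 0.25, or 0.15 with the trend in length and level taken out.

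The ISWI ATPases lay on opposite sides of 0. Smarca1 (Snf2l; X chromosome, 47809368 to 47892975, minus strand) had 3.08, 2.93 and 3.14 CPM in knockout and 4.25, 4.22 and 4.26 CPM in WT, with no overlap. Its log2 fold change of -0.47 ± 0.13 (edgeR adjusted p = 0.780) was the lowest of the 59 rows. Smarca5 (Snf2h), the more abundant ISWI motor, had 85.8, 99.3 and 91.2 CPM in knockout and 84.4, 85.5 and 83.4 CPM in WT, a log2 fold change of 0.13 ± 0.07 (adjusted p = 0.859 in edgeR) with groups that just cleared each other. Per kilobase, Smarca5 stood at 11.8 CPM in knockout and 10.9 in WT, and Smarca1 at 0.499 in knockout and 0.693 in WT. The difference between their fold changes was not tested. Smarcad1, a remodeller of silent chromatin, was at 0.13 ± 0.09, and Smarcal1, which re-anneals DNA at stalled replication forks, at -0.01 ± 0.12.

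Among the CHD remodellers, 7 of 8 tested genes lay above 0, against 49.4% of all genes, with a median of 0.10. At an unadjusted p under 0.05, 1 was higher, against 3.95% of all genes. With the trend in length and level taken out, their median was 0.03. Chd6 (chromosome 2, 160946978 to 161109076, minus strand), a remodeller of the same subfamily as Chd7 and Chd8, had 64.8, 72.5 and 72.0 CPM in knockout and 44.9, 57.9 and 51.9 CPM in WT. The groups did not overlap although WT spread widely, and the log2 fold change of 0.44 ± 0.10 (SE, edgeR adjusted p = 0.741) was the highest of the protein-coding genes. Its relatives were at 0.23 ± 0.11 (Chd8), 0.09 ± 0.31 (Chd7) and -0.04 ± 0.12 (Chd9), each with overlapping groups. Chd9 had 135, 121 and 99.8 CPM in knockout and 125, 130 and 111 CPM in WT. Chd3 and Chd4, the alternative motors of the NuRD repressor complex, were at 0.08 ± 0.10 and 0.09 ± 0.07, and Chd1 and Chd2 at 0.12 ± 0.06 and 0.10 ± 0.12. Chd1 was matched to the annotation by symbol only, since its deposited span (chromosome 17, 15704967 to 17394899) is far longer than the gene. Chd5, known chiefly from neurons and testis, had 0.0915 to 0.161 CPM in knockout and 0.0390 to 0.316 CPM in WT and was not tested.

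All 5 KMT2 methyltransferases lay above 0 (median 0.21), and 3 were higher at an unadjusted p under 0.05. These are long genes, with a median of 16670 bases of exon, and of all genes tested with at least 10000 bases 73.1% lay above 0 and 15.8% were higher. With the trend in length and level taken out, the median of the 5 was 0.11. Kmt2c (chromosome 5, 25271798 to 25498784, minus strand), an enhancer methyltransferase, had 75.0, 80.4 and 66.1 CPM in knockout and 60.9, 61.1 and 50.2 CPM in WT, a log2 fold change of 0.36 ± 0.11 (edgeR adjusted p = 0.780). Its relative Kmt2d (chromosome 15, 98831669 to 98871205, minus strand) had 65.3, 65.2 and 71.2 CPM in knockout and 59.9, 58.8 and 55.5 CPM in WT, or 0.21 ± 0.06. In both genes the libraries separated by group, with replicate 3 the lowest of each group for Kmt2c but the highest of the knockout for Kmt2d. Kmt2a (MLL1), which acts at promoters, had 54.3, 52.3 and 49.8 CPM in knockout and 45.5, 47.03 and 39.5 CPM in WT, with a log2 fold change of 0.25 ± 0.08. Its partner form Kmt2b was at 0.17 ± 0.11, and Kmt2e, for which no methyltransferase activity is firmly established, at 0.02 ± 0.08, both with overlapping groups. The KMT5 enzymes of histone H4 lay nearer to 0, with Kmt5a at 0.03 ± 0.13, Kmt5b at 0.07 ± 0.06 and Kmt5c at 0.03 ± 0.12.

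**Figure D2:**
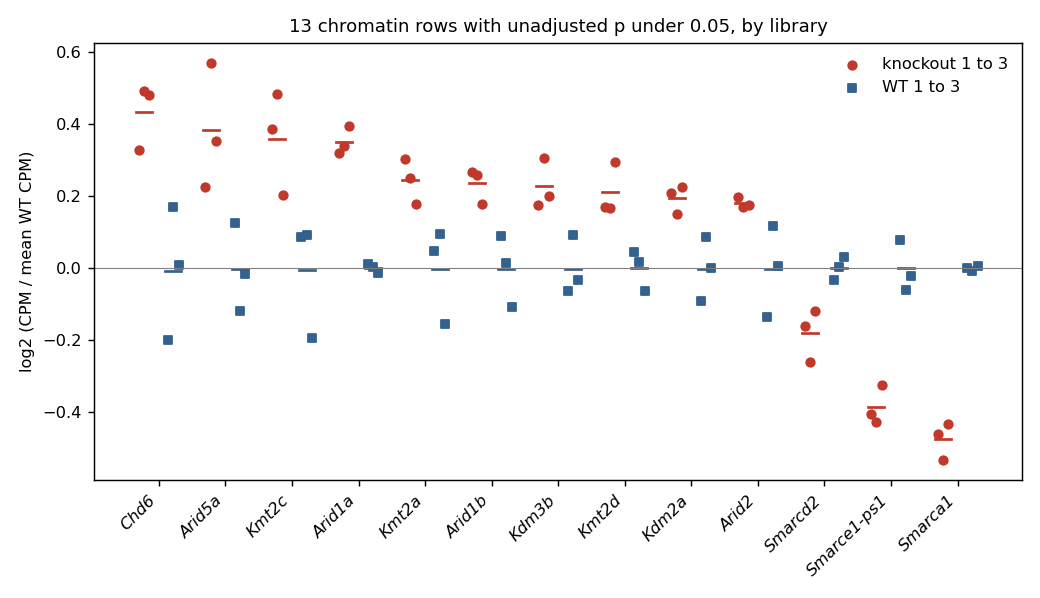
Level of the 13 rows with an unadjusted edgeR p under 0.05 in each library, as log2 of CPM over the WT mean of that row (y axis), with circles for knockout 1 to 3, squares for WT 1 to 3 and lines for group means. The 10 higher rows and the 3 lower rows each separate by group, with Arid1a at 47.01 to 49.5 CPM in knockout and 37.3 to 37.9 CPM in WT.

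Of the demethylases, the LSD enzymes Kdm1a and Kdm1b were at 0.04 ± 0.07 and 0.01 ± 0.09. The jumonji enzymes, which need iron and oxygen, lay above 0 in 14 of 16 genes (median 0.07), against 49.4% of all genes. At an unadjusted p under 0.05, 2 were higher and 0 lower, against 3.95% and 2.01% of all genes. With the trend in length and level taken out, their median was 0.01. Kdm2a, which binds CpG islands, had 60.8, 58.4 and 61.6 CPM in knockout and 49.4, 55.9 and 52.6 CPM in WT (0.20 ± 0.06). Kdm3b, an eraser of a repressive H3 mark, had 33.5, 36.6 and 34.1 CPM in knockout and 28.4, 31.6 and 29.0 CPM in WT (0.23 ± 0.07), and 24.6% of its exonic bases are shared with Gm26538 on the opposite strand. Kdm4c, which erases the same kind of mark, also separated by group, at 39.1, 40.97 and 43.1 CPM in knockout and 34.7, 38.3 and 37.7 CPM in WT (0.16 ± 0.07). The other jumonji genes overlapped between groups, and Kdm5b and Kdm5a, erasers of the KMT2 mark, were at 0.05 ± 0.06 and 0.13 ± 0.10. Kdm6b and Kdm6a, erasers of the Polycomb mark, were at 0.14 ± 0.16 and -0.01 ± 0.10, and Kdm6a turned positive in limma-voom with sample weights (0.08). Kdm4d, an enzyme of the testis in mice, was close to absent, with a mean of 0.244 ± 0.165 CPM in knockout and 0.221 ± 0.209 CPM in WT (SD, n = 3 each). Kdm3b, Kmt2a, Kdm2a and Arid2, and the pair Kdm4c and Smarca5, were named after their values were seen, and other genes outside the naming rule are given to complete their role groups.

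Of the genes on the sex chromosomes, Kdm5c and Kdm5d form an X and Y pair of erasers. Kdm5c had 57.1, 51.7 and 60.3 CPM in knockout and 53.3, 47.1 and 49.7 CPM in WT (0.17 ± 0.08), with overlapping groups. Kdm5d had 12.8, 11.9 and 11.6 CPM in knockout and 13.3, 10.2 and 11.5 CPM in WT (0.05 ± 0.12), so Y-linked message was present in all 6 libraries.

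The noncoding rows differed in level. Smarce1-ps1 (chromosome 8, 41657593 to 41658670), a processed copy of Smarce1, had 10.4, 10.3 and 11.04 CPM in knockout and 14.6, 13.3 and 13.6 CPM in WT, a log2 fold change of -0.38 ± 0.08 (edgeR adjusted p = 0.662). Reads of such a copy can be shared with its parent by the estimation of counts, and Smarce1 itself had 37.97, 41.1 and 40.4 CPM in knockout and 39.3, 39.9 and 40.7 CPM in WT. Smarca5-ps was at 0.23 ± 0.16. Kdm6bos, the antisense gene of Kdm6b, had 0.215 to 0.366 CPM in knockout and 0.0527 to 0.240 CPM in WT, and 34% of its exonic bases are shared with Kdm6b.

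Ratios of message within pairs of paralogs were compared between the groups. They do not measure the make-up of protein complexes. Across 8 pairs, the log2 ratio of CPM overlapped between groups in every pair, the exact permutation test (two-sided) gave p from 0.2 to 0.9, and adjusted values lay between 0.6 and 0.9. With 3 against 3 libraries the smallest p possible is 0.1, so these tests cannot pass 0.05. The Arid1a to Arid1b ratio was -0.97 ± 0.09 in knockout and -1.08 ± 0.09 in WT (SD, n = 3 each), and the Smarca4 to Smarca2 ratio was -1.13 ± 0.09 in knockout and -1.19 ± 0.05 in WT. Kmt2c to Kmt2d differed by 0.15, Kdm6b to Kdm6a by 0.16 and Smarcd3 to Smarcd1 by -0.08. The remaining differences lay between -0.08 and -0.02. For Kdm6b to Kdm6a, WT 3 at -0.51 stood apart from WT 1 and WT 2 at -1.21 and -1.24.

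**Figure D3:**
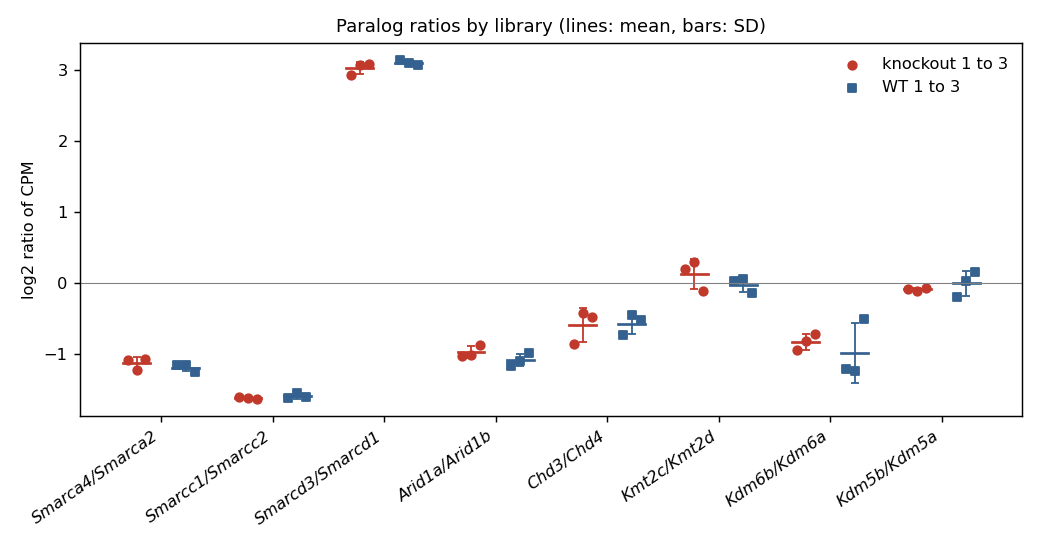
Log2 ratio of CPM within 8 pairs of paralogs in each library (y axis), with circles for knockout 1 to 3, squares for WT 1 to 3, lines for means and bars for SD. The groups overlap in every pair, and Smarcd3 to Smarcd1 is the one pair far above 0, at 3.02 in knockout and 3.10 in WT. Of the exonic bases of Smarcd3, 48.2% are shared with Chpf2 on the opposite strand.

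The 10 genes higher at an unadjusted p under 0.05 shared great length. All 10 had at least 10000 bases of exon, as had 25 of the 59 rows. Of those 25, 24 lay above 0 and 10 (40%) were higher, 0 were lower, and the median log2 fold change was 0.17. The 34 shorter rows had 23 above 0, 0 higher and 3 lower, and a median of 0.05. The median exonic length was 8225 bases over the 59 rows and 3795 bases over all genes tested.

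Length moved with fold change over the whole table too. The 1308 other genes of at least 10000 bases had a median log2 fold change of 0.09, with 72.7% above 0 and 200 (15.3%) higher at an unadjusted p under 0.05, while the 15242 other genes below that length had a median of -0.01 and 2.93% higher. Across genes, which are not independent replicates and share the same 6 libraries, Spearman's rho of length and fold change was 0.187 over 16609 genes and 0.382 over the 59 rows. When a trend in length and level fitted over all genes was taken out, 38 of 59 rows stayed above 0 and the median of the rows was 0.03. On that scale Arid1a stood at 0.26, Chd6 at 0.30, Arid5a at 0.29, Kmt2c at 0.23, Arid1b at 0.14 and Kmt2d at 0.08. The other 4 of the 10 higher genes stood at 0.13 (Kmt2a), 0.12 (Kdm3b), 0.09 (Kdm2a) and 0.10 (Arid2), and Smarca1 at -0.48. Whether the chromatin genes differ from other genes of their length was not tested.

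**Figure D4:**
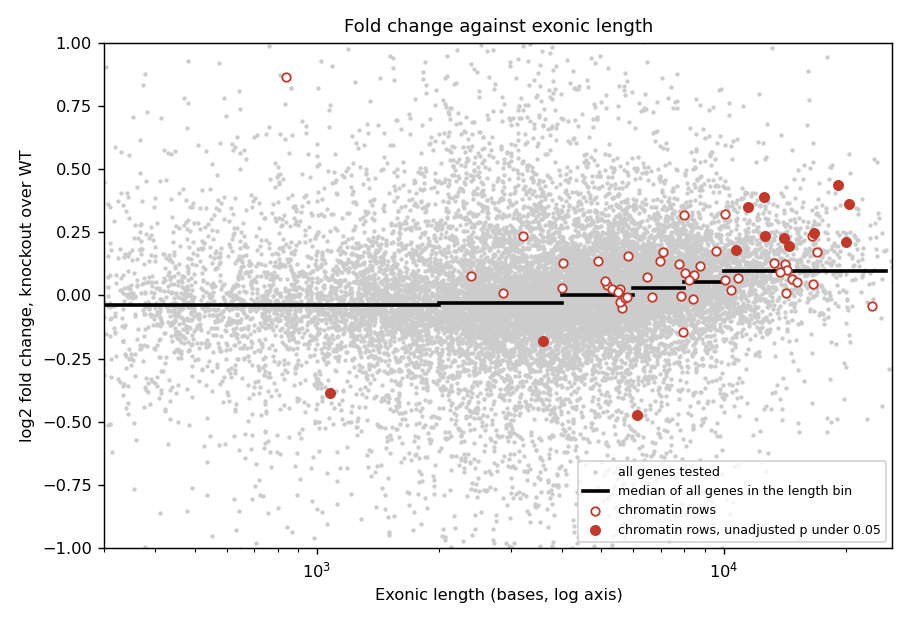
Log2 fold change (knockout over WT) against exonic length (log axis) for all genes tested (grey points) and the 59 chromatin rows (open circles, filled where the unadjusted edgeR p is under 0.05). Black lines give the median of all genes in 6 bins of length, which runs from -0.04 in the shortest to 0.09 in the longest, and every filled circle above 0 lies at 10000 bases or more.

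By library, the chromatin rows and the other long genes lined up by group. The median over the 59 rows of log2 CPM, centred on each row's mean over the 6 libraries, was 0.03, 0.11 and 0.04 in knockout 1 to 3 and -0.04, -0.02 and -0.08 in WT 1 to 3. The same median over the 1308 other long genes was 0.07, 0.05 and 0.03 in knockout and -0.01, -0.05 and -0.08 in WT. Knockout 1 and WT 2 each lay with their own group in both medians. With each library left out in turn, the median of the 59 rows ran from 0.07 to 0.11, and without knockout 1 it was 0.10. By an unadjusted p under 0.05, 12 of them were higher and 3 lower. Of all 17158 genes in that fit, 769 were higher and 956 lower. Without WT 2 the median was 0.11, with 13 rows higher and 3 lower, against 798 and 581 of all 17242 genes. The part of fibroblast content in these medians, in these counts and in single genes was not tested. Proliferation markers (10 genes) summed to 55.4 to 80.1 CPM in knockout and 54.3 to 70.0 CPM in WT, and 4 nuclear noncoding RNAs to 1362 to 2254 CPM in knockout and 1722 to 2213 CPM in WT.

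**Figure D5:**
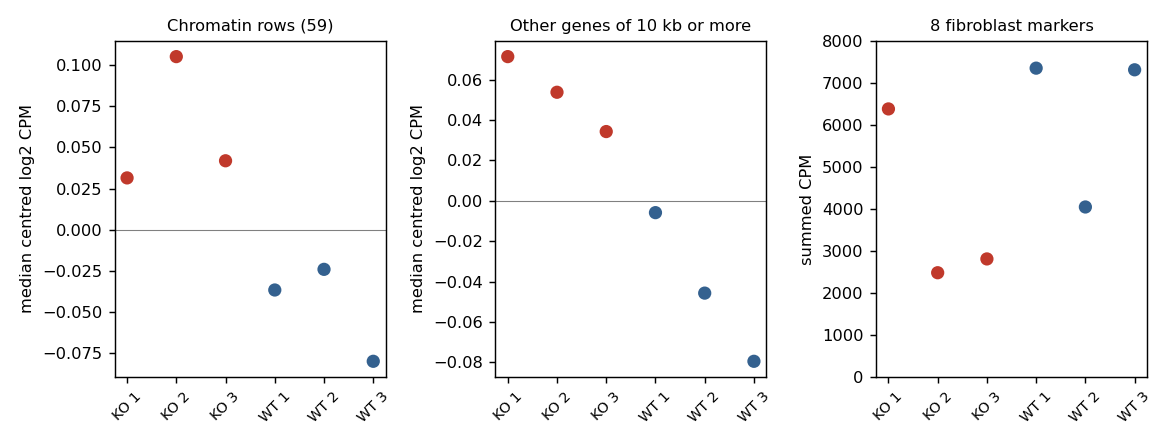
Value of each library (KO 1 to 3 for knockout, then WT 1 to 3) for the median centred log2 CPM of the 59 chromatin rows (left), the same for 1308 other genes of at least 10000 bases of exon (middle) and the summed CPM of 8 fibroblast markers (right). The left and middle panels separate by group, and in the right panel knockout 1 at 6388 CPM lies between WT 2 and WT 3.

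Most partner genes of these complexes and most other histone methylation genes also lay above 0. The 6 lists of other chromatin genes held 105 symbols, of which 98 were found among the counted genes and 96 were tested. Of the 96 genes tested, 63 lay above 0, where 49.4% of all genes did, and 0 passed the adjusted threshold. At an unadjusted edgeR p under 0.05, 11 of them were higher and 0 lower, against 3.95% and 2.01% of all genes. With the trend in length and level taken out, the medians of the 6 lists ran from -0.0264 to 0.0624, and that of the ISWI, INO80 and SRCAP partners turned to -0.0264, against 0.0205 before. Of 25 other histone methyltransferases, 19 lay above 0 (median 0.09) and 3 were higher, and their median less the trend was 0.0449. Dot1l, which methylates the globular core of histone H3, had 15.6 ± 0.923 CPM in knockout and 11.7 ± 0.220 CPM in WT (SD, n = 3 each), which gave 0.42 ± 0.08 as its log2 fold change (SE, edgeR adjusted p = 0.570). Suz12, a Polycomb subunit, was at 0.20 ± 0.07.

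Among demethylases and jumonji proteins outside the Kdm names, 8 of 11 lay above 0 and 3 were higher, including Phf2, the partner of Arid5b, at 0.39 ± 0.11, and Jarid2, a Polycomb cofactor, at 0.24 ± 0.08. The COMPASS partners, which work with KMT2 enzymes, lay above 0 in 10 of 15 genes with 2 higher, the adaptors Hcfc1 at 0.30 ± 0.08 and Hcfc2 at 0.21 ± 0.06. SWI/SNF partners lay above 0 in 10 of 14 genes with 1 higher, Bicral of the GBAF form at 0.30 ± 0.07, followed by Dpf1 at 0.39 ± 0.19. ISWI, INO80 and SRCAP partners lay above 0 in 12 of 20 with 1 higher, Baz2a, which pairs with Smarca5, at 0.26 ± 0.06, followed by Ino80d at 0.25 ± 0.11. NuRD partners lay above 0 in 4 of 11, with Gatad2b at 0.19 ± 0.06 and the deacetylase Hdac2 at -0.14 ± 0.07. Gatad2b and Suz12 hold 3 and 2 matches to the miR-21 seed in the searched UTR, and the other genes named from these lists hold none.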

How the data were processed

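Frozen tissue was extracted with Trizol and sequenced from TruSeq RNA libraries (1 ug of total RNA each), per the labels' protocols. The authors deposited 1 table for the 6 samples, which holds an estimated count per gene, not normalized. All sample columns could be assigned (0 were left over). The submitters' processing notes name mm10, STAR 2.6 and DESeq2 without saying what each was used for. Counting tool, annotation and strand setting were not given in the sources used here. Estimated counts share reads among similar genes.

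Counts were rounded, kept by filterByExpr, scaled by TMM (factors 0.987 to 1.02) and tested with edgeR 4.0.16 (R 4.3.3, robust quasi-likelihood fit), knockout against WT, two-sided, with Benjamini-Hochberg adjustment over all genes and a threshold of 0.05. Intervals and SE cover the spread between the 6 libraries, and the median SE of a log2 fold change was 0.136 over all genes and 0.0940 over the chromatin rows. Alternatives were DESeq2 1.42.0, limma-voom (limma 3.58.1) with sample weights, other scalings and filters, the replicate number as a block, thinning and leaving out each library. The trend in length and level was a loess fit (span 0.3) over all genes. Genes were matched to GENCODE M21 by position (21574) or symbol (1321), with 61 unmatched, and the deposited end coordinates run 1 base past the annotated ends. Of the 60 rows, 25 share exonic bases with another gene, 5 of them over 10% of their length (Smarcd3, Kdm6bos, Kdm3b, Chd2 and Smarcd1). No 2 libraries of a group agreed within sampling noise (chi-square per gene, on average, 31.2 to 109). The edgeR step was also run on simulated counts with known changes, with means and dispersions taken from these data, and the outcome is not given here. Permutations and figures used Python 3.11.15 with scipy 1.17.1 and matplotlib 3.10.9.

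The chromatin genes, the other lists and the tests were chosen with earlier results of these data known. Named were the 6 rows with the smallest p in each direction, the paralog pairs, rows with a seed match, rows on the X or Y chromosome and the 2 genes with the smallest p in each other list. Further rows are given to describe their role group.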

Additional observations from a re-analysis of the deposited data

How the results depend on the processing

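The number of genes called over the whole table was 75 with DESeq2, 1 with the replicate block and 0 to 1 with a library left out, and 0 with the other settings. Chromatin rows called numbered 1 with DESeq2 and 0 otherwise. Rows higher at an unadjusted p under 0.05 numbered 8 to 15 and rows lower 2 to 4 (15 and 4 with the replicate block, where all genes gave 1189 and 918; 15 and 3 with limma-voom, where all genes gave 1128 and 779). Rows above 0 numbered 42 to 48, and 38 with the trend in length and level taken out, an alternative that brought their median to 0.0299. Deviations from the group means correlated between same-numbered samples at r of 0.262, 0.288 and -0.0353 for replicates 1, 2 and 3. Between differently numbered samples r ran from -0.321 to 0.102. Whether replicate numbers pair the samples was not tested. Signs turned for genes near 0. Smarcc1 was at 0.0012 with at least 1 CPM in 3 samples, 0.0008 in DESeq2, 0.0087 in limma-voom and 0.0065 after thinning. In limma-voom Chd7 was at -0.0253 and Kdm6a at 0.0768, and with upper-quartile factors Smarca2 was at -0.0022. Without the trend, Kdm5b was at -0.0732, Kdm5d at -0.0493, Kdm7a at -0.0149, Smarca2 at -0.10 and Smarcc2 at -0.0019. The cause was not tested. With a library left out, values ran from -0.14 to 0.0097 for Arid4a, -0.15 to 0.0695 for Chd9, -0.0206 to 0.0213 for Smarcc1, -0.0589 to 0.18 for Smarcd3, -0.0022 to 0.0798 for Kdm5b, -0.0148 to 0.0225 for Smarca2, -0.0009 to 0.0581 for Smarcc2, -0.0004 to 0.25 for Smarcd1, -0.11 to 0.0650 for Kdm6a, -0.19 to 0.29 for Chd7, -0.0170 to 0.17 for Kdm7a, -0.0371 to 0.15 for Kdm5d and -0.10 to 0.12 for the ratio of Chd3 to Chd4. They kept their sign for Arid1a (0.33 to 0.36), Chd6 (0.35 to 0.52), Arid5a (0.29 to 0.46), Kmt2c (0.27 to 0.44) and Smarca1 (-0.50 to -0.45).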
